A study of Mus musculus with 6 samples.

Results

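Follicular B cells use a set of proteins that shorten the lives of messenger RNAs, and 10 of their genes were followed here in cells with and without myosin IIa: Zfp36, Zfp36l1 and Zfp36l2 of the ZFP36 family, Btg1, Btg2 and Tob1 of the BTG/TOB family, and Cnot1, Cnot6l, Cnot7 and Cnot8 of the CCR4-NOT complex. The genes were taken by symbol from the 20458 gene names of the deposited expression table, where they have 14 of the 25017 entries. Each entry stands for those transcripts of a gene that have the same coding sequence. The list was drawn up with the values of this comparison known, so its values are a description and no test of them was made.

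The cells were follicular B cells sorted as B220+AA4.1-CD23+CD21lo from C57BL/6 mice of 2 genotypes, CD23Cre+Myh9wt/fl and CD23Cre+Myh9fl/fl, with 3 replicate samples each. All samples carry the CD23Cre transgene, in which Cre recombinase is driven from the promoter of Fcer2a, the gene of CD23. Cre removes a part of Myh9, the myosin IIa heavy chain gene, from 1 allele in the wt/fl cells and from both alleles in the fl/fl cells, so the control cells are haploinsufficient and not wild-type. The age of the mice and the organ the cells came from are not given in the labels. The comparison was made to look for signaling pathways behind the activated surface phenotype of the myosin IIa-deficient cells.

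For each entry the deposited table holds 1 value per genotype, pooled over its 3 samples by the authors, in fragments mapped per transcript length and sequencing depth (FPKM). There is therefore no spread between samples for any value below, no p-value was computed, and the depth per sample is unknown. Values were summed over the entries of a gene, and log2 ratios are fl/fl over wt/fl with 1 FPKM added to each value. Genes averaging 1 FPKM or more over the genotypes were compared, 9866 in all, and all 10 decay factor genes are among them. Myh9 was at 50.6 FPKM in wt/fl against 21.1 FPKM in fl/fl, 41.7% of the control level. This value covers the whole gene, of which Cre removes only a part, so it does not measure how much intact Myh9 mRNA was left. The B cell markers were abundant in both genotypes, with Cd79b, a signaling chain of the B cell receptor, at 1638 and 1739 FPKM and the 10 listed markers summing to 5304 and 5585 FPKM.

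The proteins meet at the CCR4-NOT complex. ZFP36 proteins (ZFP36 is also called tristetraprolin) bind AU-rich elements in the 3' untranslated region (UTR) of an mRNA through a pair of CCCH zinc fingers and bring in the CCR4-NOT complex. CCR4-NOT is built on the scaffold Cnot1 and carries deadenylases, which remove the poly(A) tail: Cnot6l is of the CCR4 type, and Cnot7 and Cnot8 are of the CAF1 type. BTG and TOB proteins bind the CAF1 deadenylases and link them to mRNAs in their own way. In lymphocytes both families are known for holding back growth: Zfp36l1 and Zfp36l2 keep developing B cells quiescent, and Btg1 and Btg2 keep T cells so.

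The mRNAs of the ZFP36 family hold AU-rich elements of their own. In the longest annotated 3' UTR of each gene (GENCODE M21, build GRCm38), the sense strand was searched for the heptamer TATTTAT, the core of the site that ZFP36 proteins bind, with overlapping matches counted. Zfp36, Zfp36l1 and Zfp36l2 each held 3. Their sites are shown because these genes are close relatives with the same number of matches, while Zfp36l2 differed between the genotypes and Zfp36 and Zfp36l1 were nearly level. The longest 3' UTR was used because the table does not tell which one is present, and the shortest annotated one of Zfp36l1 (37 bases) holds 0. Each line is 1 window of at most 30 bases, 5' to 3' on the mRNA strand, with the heptamers in capitals.
Zfp36 site 1: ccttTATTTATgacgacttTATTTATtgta
Zfp36 site 2: agattttatagTATTTATatatattgggtc
Zfp36l1 site 1: ttatcaaaacgTATTTATtgccaaactatg
Zfp36l1 site 2: aattttgttcaTATTTATcgggatgacaaa
Zfp36l1 site 3: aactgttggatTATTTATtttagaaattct
Zfp36l2 site 1: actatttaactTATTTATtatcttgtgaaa
Zfp36l2 site 2: tgtccatactgTATTTATcgagtatgatga
Zfp36l2 site 3: attgtatgtaaTATTTATttcattaatttc

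On GRCm38 the Zfp36 windows lie on the minus strand at chr7:28376958-28376987 and chr7:28376925-28376954, in the 3' UTR of 774 bases. Those of Zfp36l1 lie on the minus strand at chr12:80108421-80108450, chr12:80108380-80108409 and chr12:80108166-80108195, in a 3' UTR of 1835 bases. For Zfp36l2 they lie on the minus strand at chr17:84184913-84184942, chr17:84184865-84184894 and chr17:84184679-84184708, in a 3' UTR of 1822 bases. In each gene, 1 of the 3 heptamers has a further T on both sides. Among compared genes with a 3' UTR within 25% of the same length, 3 or more heptamers were present in 0.742% of 1347 for Zfp36, in 3.03% of 1748 for Zfp36l1 and in 2.99% of 1739 for Zfp36l2.

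Other decay factors held fewer matches for their length. Btg2 held 1, which is shown because Btg2 is the only BTG/TOB gene of the 10 with a match.
Btg2 site 1: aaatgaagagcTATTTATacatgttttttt
It lies on the minus strand at chr1:134077248-134077277 (GRCm38), from base 92 of a 3' UTR of 2199 bases, a length at which 41.4% of 1722 genes have at least 1. Btg1, with a 3' UTR of 4166 bases, Tob1, with 767, and Cnot1, with 956, held 0. Cnot7 and Cnot8 held 1 each, and Cnot6l held 3 in a 3' UTR of 6847 bases, where 21.7% of 313 genes of like length hold as many. A match is a description of these letters and not evidence of binding.

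Zfp36l2 stood apart from its relatives. It has a single entry, at chr17:84583268-84587287 in the positions of the deposited table (mm9), with 172 FPKM in wt/fl against 86.9 FPKM in fl/fl cells, 50.4% of the control level. The difference, fl/fl minus wt/fl, was −85.6 FPKM and the log2 ratio −0.98. Zfp36l2 was among the most abundant genes in these cells, above 95.4% of the compared genes in mean FPKM.

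Of the 10 decay factor genes, Zfp36l2 alone was lower in fl/fl past 1.5-fold, and 0 were higher past 1.5-fold. Among all 9866 genes compared, 1.53% were lower and 0.791% were higher past 1.5-fold. Among the 1473 genes averaging 50 FPKM or more, a floor chosen after the levels had been seen, 1.36% were lower past 1.5-fold. A lower log2 ratio than that of Zfp36l2 was found in 45 of the 9866 genes and in 8 of these 1473. At a limit of 2-fold in place of 1.5-fold 0 of the 10 genes were past it, since the log2 ratio of Zfp36l2 (−0.98, with 1 FPKM added) fell just short. Without the added FPKM, Zfp36l2 was 1.99-fold lower. Of all compared genes, 0.405% were lower past the 2-fold limit.

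Zfp36 and Zfp36l1 were at nearly the same level in both genotypes. Zfp36 (chr7:29161802-29164247, mm9) encodes the founding member, which acts on cytokine mRNAs such as Tnf. It was at 336 FPKM in wt/fl against 348 FPKM in fl/fl, a log2 ratio of 0.05. Zfp36l1 (chr12:81208746-81214000, mm9), needed for marginal zone B cells, was at 155 FPKM in wt/fl against 156 FPKM in fl/fl, a log2 ratio of 0.0097. Both log2 ratios lay well inside the range of −0.34 to 0.31 that held the middle 90% of compared genes, whereas that of Zfp36l2 lay far below it.

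The make-up of the family pool differed between the genotypes. The 3 ZFP36 mRNAs summed to 663 FPKM in wt/fl against 591 FPKM in fl/fl, 89.1% of the control level. Zfp36l2 made up 26.0% of this pool in wt/fl and 14.7% in fl/fl, while the share of Zfp36 was 50.7% and 59.0% and that of Zfp36l1 was 23.3% and 26.3%. Without Zfp36l2, the sum of the other two was 491 FPKM in wt/fl against 504 FPKM in fl/fl. Although the proteins are related, the longest exact run shared by annotated transcripts was 32 bases between Zfp36l1 and Zfp36l2, 18 bases between Zfp36 and Zfp36l2, and 17 bases between Zfp36 and Zfp36l1.

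**Figure D1:**
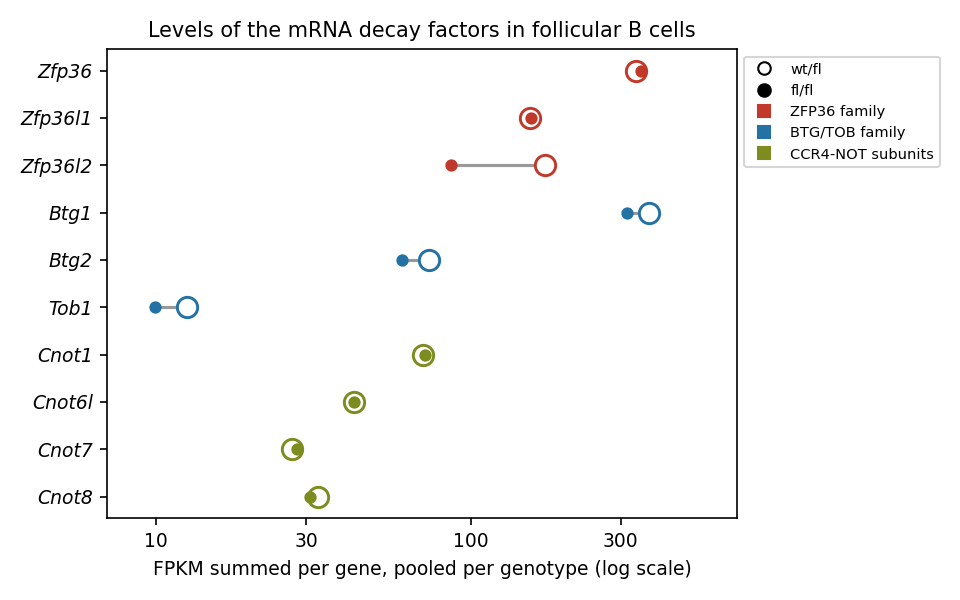
FPKM summed per gene (log scale) for the 10 decay factor genes, with an open circle for wt/fl and a filled circle for fl/fl, each 1 value pooled over 3 samples. The circles of Zfp36l2 lie at 172 FPKM (wt/fl) and 86.9 FPKM (fl/fl), those of Btg1, Btg2 and Tob1 are separated by less with fl/fl on the left, and those of the other genes touch or overlap.

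The 3 BTG/TOB genes were each lower in fl/fl by less than 1.5-fold. Btg1 (chr10:96079634-96085445, mm9), which encodes an anti-proliferative protein abundant in resting lymphocytes, was at 369 FPKM in wt/fl against 315 FPKM in fl/fl, 85.4% of the control level. Btg2 (chr1:135971441-135975732, mm9), its closest relative and a gene that p53 induces, was at 73.7 FPKM in wt/fl against 60.3 FPKM in fl/fl, or 81.8%. Tob1 (chr11:94072767-94076806, mm9), whose protein also binds poly(A)-binding protein, was at 12.5 FPKM in wt/fl against 9.92 FPKM in fl/fl, or 79.3%.

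Lower in fl/fl, as were 49.5% of all compared genes, the 3 values lay on the same side and close together. Their log2 ratios were −0.23 for Btg1, −0.29 for Btg2 and −0.31 for Tob1, all within the middle 90% of the compared genes. Among the 1473 genes averaging 50 FPKM or more, which include Btg1 and Btg2, the middle 90% ran from −0.25 to 0.25. Btg1 lay inside this range, with 5.91% of these genes lower, and Btg2 lay below it, with 4.07% lower. A lower log2 ratio was found in 10.8% of compared genes for Btg1, in 7.11% for Btg2 and in 6.14% for Tob1. Together the 3 genes summed to 455 FPKM in wt/fl against 385 FPKM in fl/fl, 84.6% of the control level, a difference (fl/fl minus wt/fl) of −69.8 FPKM. Btg1 made up 81.0% of the sum in wt/fl and 81.8% in fl/fl.

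The CCR4-NOT subunits were level between the genotypes. The 4 genes summed to 173.0 FPKM in wt/fl against 172.8 FPKM in fl/fl, 99.9% of the control level. Cnot1 (chr8:98243350-98345628, mm9), the scaffold to which the other subunits attach, was at 70.8 FPKM in wt/fl against 71.4 FPKM in fl/fl. Cnot6l (chr5:96504756-96591009, mm9) was at 42.4 and 42.5 FPKM.

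Of the CAF1 deadenylases, Cnot7 (chr8:41577891-41720146, mm9) was at 27.0 FPKM in wt/fl against 28.0 FPKM in fl/fl, and Cnot8 (chr11:57917654-57932096, mm9) at 32.7 and 30.8 FPKM. The log2 ratios of the 4 subunits ran from −0.085 for Cnot8 to 0.052 for Cnot7. The longest exact run shared by the transcripts of Cnot7 and Cnot8 was 20 bases.

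Of the 10 genes, 3 have several entries, and all 3 are CCR4-NOT subunits. Cnot1 has 3 entries, of which the largest was at 63.4 FPKM in wt/fl against 62.9 FPKM in fl/fl and made up 89.7% and 88.0% of the gene. The next was at 5.46 and 6.71 FPKM, and its smallest at 1.86 and 1.83 FPKM. Cnot6l is split nearly evenly between its entries, and they lay on opposite sides.

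One Cnot6l entry was at 21.7 FPKM in wt/fl against 20.1 FPKM in fl/fl, and the other at 20.7 and 22.4 FPKM. The share of the first entry was 51.1% in wt/fl and 47.4% in fl/fl, so which entry was the larger differed between the genotypes by a small margin. Cnot7 rests almost wholly on 1 entry, with 26.4 FPKM in wt/fl against 27.4 FPKM in fl/fl, beside an entry at 0.584 and 0.658 FPKM. The deposited table does not say which transcripts an entry holds, so the entries could not be matched to isoforms.

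Ordered by level, the genes exchanged places in 3 neighboring pairs. In wt/fl the order from high to low was Btg1, Zfp36, Zfp36l2, Zfp36l1, Btg2, Cnot1, Cnot6l, Cnot8, Cnot7 and Tob1. In fl/fl Zfp36 stood above Btg1, Zfp36l1 above Zfp36l2, and Cnot1 above Btg2. With 1 pooled value per genotype it cannot be said which neighbors differ beyond the spread between samples. Over the 10 genes the log2 ratios had a median of −0.041, against 0.0026 over all compared genes.

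**Figure D2:**
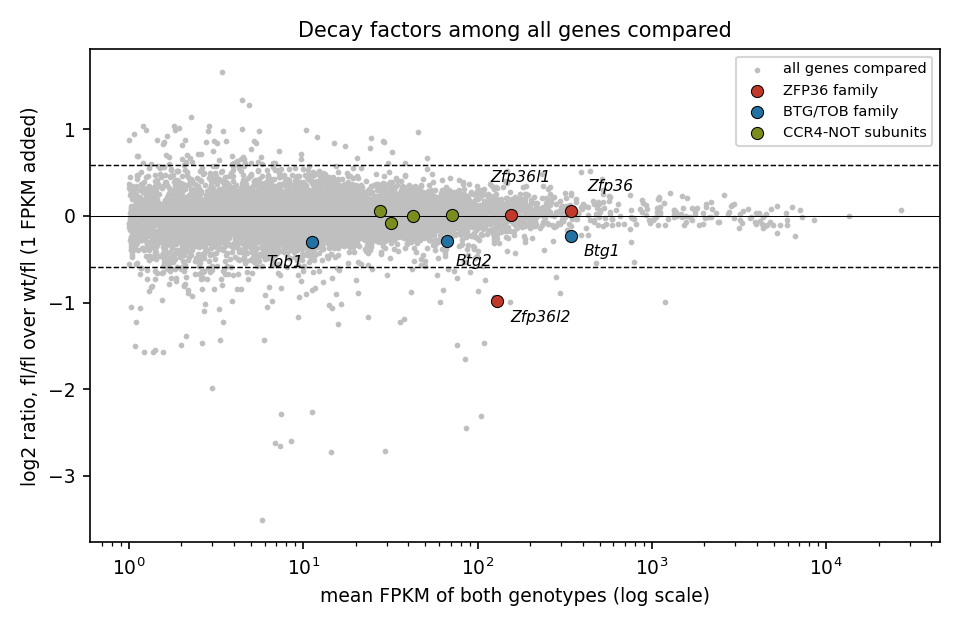
Log2 ratio of fl/fl over wt/fl (1 FPKM added) against the mean FPKM of both genotypes (log scale) for the 9866 genes compared (grey), with the 10 decay factor genes in color by family and dashed lines at 1.5-fold. Zfp36l2 lies below the lower dashed line at −0.98, the BTG/TOB genes lie between −0.31 and −0.23, and the other 6 genes lie near 0.

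The levels are those of a sorted population, in which fewer cells of a type and less RNA per cell cannot be told apart. Markers of neutrophils, which the gate on B220 and CD23 should leave out, were lower in fl/fl: of 16 listed markers 10 were compared, all 10 were lower and 7 of them past 1.5-fold, and the summed level of the list was 390 FPKM in wt/fl against 74.9 FPKM in fl/fl. S100a9 was at 175 and 34.5 FPKM and S100a8 at 145 and 25.8 FPKM, while the granule genes Elane and Mpo were under 1 FPKM in wt/fl and listed at 0 in fl/fl, and Fcnb was listed at 0 in both. Erythroid markers summed to 57.9 FPKM in wt/fl against 18.8 FPKM in fl/fl, with 2 of 3 compared names lower past 1.5-fold, the globin names shared by Hba-a1 and Hba-a2 and by Hbb-b1 and Hbb-b2.

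Summed markers of other cell types were closer between the genotypes, but single markers were not always. The macrophage and monocyte list summed to 90.7 FPKM in wt/fl against 62.0 FPKM in fl/fl (1 of 6 compared lower past 1.5-fold, Lyz2), the T cell list to 26.3 and 24.4 FPKM (0 of 5), and the plasma cell list to 118 and 107 FPKM (2 of 4 lower past 1.5-fold, Igj and Sdc1). Most of the plasma cell sum came from Irf4, at 60.8 and 58.9 FPKM, and Xbp1, at 48.8 and 45.9 FPKM, which B cells also express. Igj, which encodes the immunoglobulin joining chain, was at 5.40 FPKM in wt/fl against 0.617 FPKM in fl/fl, a log2 ratio of −1.98, and Sdc1 was at 2.30 and 1.13 FPKM. Most of the T cell sum came from Lck, at 14.5 FPKM in both genotypes. The median log2 ratio was −0.36 for the plasma cell list, −0.23 for the T cell list and −0.087 for the macrophage and monocyte list. It was −2.30 for the neutrophil list and −2.26 for the erythroid list. The part of these cells in the level of Zfp36l2 or of the BTG/TOB genes was not tested.

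Among 3763 other genes averaging 20 FPKM or more, the log2 ratio nearest to that of Zfp36l2 was found in Tsc22d3, a glucocorticoid-induced leucine zipper gene, with 204 FPKM in wt/fl against 102 FPKM in fl/fl. The next nearest were Hspa8 with 1574 and 788 FPKM, Chordc1 with 81.8 and 40.4 FPKM, Gpr171 with 163 and 84.8 FPKM, and Hsp90aa1 with 387 and 208 FPKM. Hspa8, Chordc1 and Hsp90aa1 encode heat shock proteins or their partners, and Gpr171 encodes a G protein-coupled receptor. Likeness was measured by 1 log2 ratio over the 2 genotypes, so it says only that these genes differed by about the same factor.

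The rest of the decay machinery was then read from lists of genes written with earlier results of these data known. Counts past 1.5-fold in these and the later lists stand beside 1.53% lower and 0.791% higher among all compared genes. For the other CCR4-NOT subunits, 0 of 7 compared genes were past 1.5-fold in either direction and the median log2 ratio was −0.0091, or −0.12 with the entry of highest mean FPKM of each gene in place of the sum over its entries. Cnot2 was at 69.8 FPKM in wt/fl against 76.4 FPKM in fl/fl, Cnot4, a ubiquitin ligase that joins the complex, at 40.2 and 39.9 FPKM, and Cnot3 at 21.2 and 21.8 FPKM. Cnot6, the paralog of Cnot6l, was at 20.8 and 19.1 FPKM.

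Tob2, the paralog of Tob1, was the only other BTG/TOB gene compared, with 24.6 FPKM in wt/fl against 21.4 FPKM in fl/fl, a log2 ratio of −0.19. It lay on the same side as Btg1, Btg2 and Tob1. Btg3 and Btg4 were under 1 FPKM in both genotypes and were not compared. At these low levels Btg3 lay on the other side, with 0.0634 FPKM in wt/fl against 0.891 FPKM in fl/fl. Btg4 was at 0.0257 and 0 FPKM.

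Deadenylases outside CCR4-NOT and proteins of the poly(A) tail had 1 of 9 compared genes lower past 1.5-fold and 0 higher, with a median log2 ratio of −0.022. Pabpc1, the main cytoplasmic poly(A)-binding protein, was at 462 FPKM in wt/fl against 517 FPKM in fl/fl, Paip2, which releases it from the tail, at 136 and 129 FPKM, and Pan3, a partner of the deadenylase Pan2, at 75.8 and 70.0 FPKM. The gene past 1.5-fold was Ccrn4l, also called Noct or nocturnin and related in sequence to the CCR4 deadenylases, at the low levels of 3.65 and 2.06 FPKM.

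Downstream of deadenylation, 0 of 18 genes of decapping and 5' to 3' decay were past 1.5-fold, with a median log2 ratio of −0.015. Of the Lsm proteins, which form a ring on shortened tails, Lsm7 was at 107 FPKM in wt/fl against 106 FPKM in fl/fl, Lsm5 at 101.0 and 100.7 FPKM, and Lsm4 at 90.1 and 111 FPKM. The genes of the exosome, which degrades RNA from its 3' end, and of the SKI complex that feeds it had 0 of 16 past 1.5-fold. Their median log2 ratio was 0.12, with 12 of 16 higher in fl/fl, against 49.5% of all compared genes lower. Exosc3 was at 60.1 and 67.4 FPKM, Wdr61 at 35.7 and 39.9 FPKM and Exosc5 at 32.8 and 36.3 FPKM. Exosc7, named for having the highest log2 ratio of the list (0.36), was at 26.1 and 33.9 FPKM.

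Proteins that read AU-rich elements or stem-loops in 3' UTRs besides the ZFP36 family had a median log2 ratio of −0.11, with 1 of 13 compared genes lower past 1.5-fold and 0 higher. Arid5a, which protects mRNAs from the endonuclease Regnase-1, was that gene, with 9.10 FPKM in wt/fl against 4.11 FPKM in fl/fl, a log2 ratio of −0.98. Pum2 was at 92.2 and 92.0 FPKM, Tial1 at 35.6 and 31.8 FPKM and Hnrnpd, which encodes AUF1, at 31.5 and 35.7 FPKM. Each of these was within 1.5-fold.

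ZFP36 proteins are switched off when the kinase MK2, acting below p38, phosphorylates them and 14-3-3 proteins bind. In the list for this pathway 1 of 11 compared genes was lower past 1.5-fold and 0 were higher, with a median log2 ratio of −0.046. The 14-3-3 genes Ywhaz, with 490 FPKM in wt/fl against 514 FPKM in fl/fl, and Ywhab, with 76.0 and 76.9 FPKM, were the most abundant of the list, followed by Ppp2r1a, a scaffold subunit of the phosphatase PP2A, with 62.0 and 67.3 FPKM. Dusp1, a phosphatase that turns p38 off, was the gene past 1.5-fold, with 15.3 FPKM in wt/fl against 8.12 FPKM in fl/fl. Its 3' UTR of 690 bases holds 3 heptamers. Of the genes past 1.5-fold in the lists above, Ccrn4l holds 2 in 1112 bases and Arid5a holds 0 in 3826 bases.

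**Figure D3:**
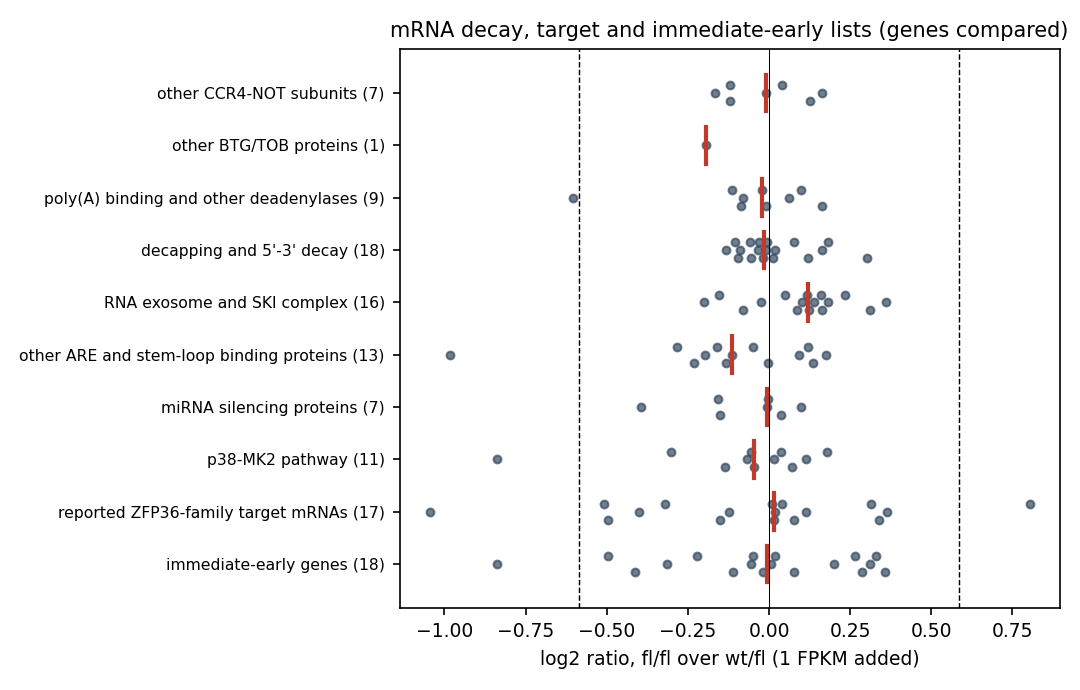
Log2 ratio of fl/fl over wt/fl (1 FPKM added) for each compared gene of the 10 lists (points, number compared in brackets), with the median of the list as a red bar and dashed lines at 1.5-fold. Most points lie between the dashed lines, and the medians run from −0.19 for the single gene of the BTG/TOB list to 0.12 for the exosome and SKI genes.

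Levels of the mRNAs that ZFP36 proteins are reported to act on went both ways. Of 29 listed genes 17 were compared, 1 was higher and 1 was lower past 1.5-fold, and the median log2 ratio was 0.015. The sign of this median depended on the processing: it was −0.12 with the entry of highest mean FPKM in place of the sum over entries, and −0.043 with no filter on low values. Of the 17, 13 held at least 1 heptamer in the 3' UTR and 9 held 2 or more. Among all 9278 compared genes with a 3' UTR, 29.8% held at least 1, and 969 genes held 2 or more. The list was made of reported targets of proteins that bind such sites, so the count only describes how it was drawn up. The others of the 29 were under 1 FPKM in the mean, and Csf2, Il2, Il3 and Cxcl2 were listed at 0 in both genotypes.

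Tnf, the target through which tristetraprolin was first understood, was the gene that was higher, with 12.4 FPKM in wt/fl against 22.3 FPKM in fl/fl, a log2 ratio of 0.80. Its 3' UTR of 764 bases holds 8 heptamers, and the densest windows are shown for comparison with the sites of the ZFP36 family, on the minus strand at chr17:35199698-35199727 and chr17:35199674-35199703 (GRCm38). The windows share a few bases at their border.
Tnf site 1: tcTATTTATatttgcacttatTATTTATta
Tnf site 2: ttatTATTTATTTATTATTTATTTATttgc

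Ccl3, a chemokine gene, was the gene that was lower, with 1.74 FPKM in wt/fl against 0.325 FPKM in fl/fl. The 3 most abundant targets were within 1.5-fold: Mcl1, a survival gene, at 307 and 324 FPKM, Klf2, a transcription factor gene that restrains the marginal zone fate, at 140 and 126 FPKM, and Irf8, a B cell transcription factor gene, at 106 and 109 FPKM. Tnf and Ccl3 are also made by myeloid cells, whose part was not tested. Over the list, 7 of the 17 compared lay lower in fl/fl and 10 lay higher.

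Across the transcriptome, genes were grouped by the heptamers in their longest 3' UTR, which was found for 94.0% of the compared genes. The median log2 ratio was 0.0098 for 6514 genes with 0 heptamers, −0.0032 for 1795 genes with 1 and −0.020 for 969 genes with 2 or more. The shares lower past 1.5-fold were 1.49%, 1.56% and 1.34%, and those higher past 1.5-fold were 0.814%, 0.446% and 0.722%. The 3' UTR was longer in the groups with more heptamers, with a median of 846 bases at 0 heptamers, 1865 at 1 and 2936 at 2 or more, and its GC content was lower (45.7%, 42.5% and 40.4%).

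Within classes of 3' UTR length the groups lay close together. In 3' UTRs over 1000 and up to 2000 bases, the class of Zfp36l1 and Zfp36l2, the median log2 ratio was 0.0062 for 1585 genes with 0 heptamers and −0.0034 for 209 genes with 2 or more. Over 4000 bases it was −0.044 for 228 genes with 0 and −0.041 for 286 genes with 2 or more. Among genes without a heptamer, the median log2 ratio ran from 0.022 in genes with up to 500 bases to −0.044 in those over 4000 bases.

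**Figure D4:**
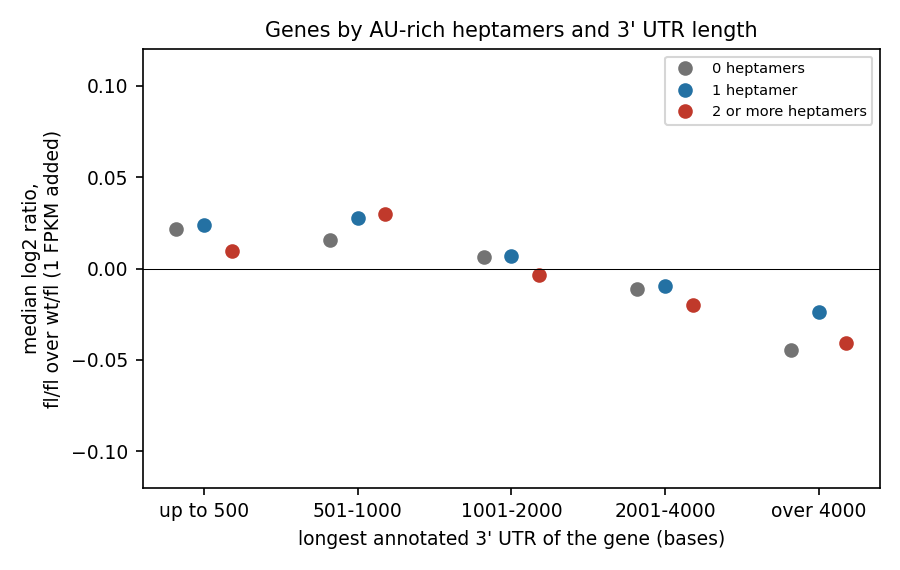
Median log2 ratio of fl/fl over wt/fl (1 FPKM added) of genes in classes of 3' UTR length, for genes with 0, 1 and 2 or more TATTTAT heptamers. All medians lie between −0.044 and 0.030, lower in the longer classes, and the 3 groups within a class differ by at most a few hundredths.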

How the data were processed

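Follicular B cell RNA was amplified (Ovation RNA-Seq system V2) and sequenced from 6 samples. Per the labels, the submitters' processing notes name Bowtie, TopHat and Cufflinks without versions, and mm10, but the deposited sequence names (such as chr13_random) and the position of Myh9 are those of mm9, and positions were neither converted nor mixed with GRCm38. The deposited table is in the layout of Cuffdiff, and the authors pooled each genotype into 1 FPKM value per entry. Its columns of the authors' comparison (log2 fold change, test statistic, p and q values and the call) were not used.

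Whole reads could not be recovered from low FPKM: times transcript length, at best 14.0% of 1748 genes (wt/fl) and 17.9% of 2279 (fl/fl) lay within 0.05 of a whole step. The precision of single values is unknown. The 44 entries whose symbols a spreadsheet turned into dates were left out.

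FPKM was summed per gene and log2 ratios were taken with a pseudocount of 1 FPKM over genes averaging 1 FPKM or more (Python 3.11.15, pandas 2.3.3, numpy 2.4.6). Genes past 1.5-fold were counted, and no test was made. Listed symbols were matched to the table through RefSeq synonyms (GRCm38.p6): all 134 were found, 6 by synonym. Members, lists and the comparisons were chosen with earlier results of these data known. The genes named are the members, Myh9, in each list the 3 of highest mean FPKM and those past 1.5-fold, and the 5 nearest to Zfp36l2 in log2 ratio; others, such as Cnot6, Exosc7, Elane and Csf2, were named after their values were seen. In the marker lists, examples only are named. 3' UTRs came from GENCODE M21 basic transcripts. The computations were tested on simulated data. Alternatives were other pseudocounts, filters, scalings, entries, folds, motifs and UTRs.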

Additional observations from a re-analysis of the deposited data

How the results depend on the processing

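With no spread between samples, a value was counted as moved when it shifted by 0.1 or more on the log2 scale, or, for a count, by more than 1.5 times. Of 176 recomputed values 171 kept within these limits, and Zfp36l2, the only decay factor past 1.5-fold, kept its direction. Zfp36l2 lay between −0.996 and −0.98 throughout, Btg1 between −0.24 and −0.23, Btg2 between −0.30 and −0.29 and Tob1 between −0.33 and −0.31. Each of these genes has 1 entry and passed the filters, so the alternatives of filter and entry could not change its value. The scalings moved the median of all genes by only −0.014 (upper quartile) and −0.0026 (median ratio). Part of the 171 was therefore fixed in advance. Values near 0 changed sign: Zfp36l1 reached −0.0056 and Cnot6l −0.012 under upper quartile scaling, and Cnot1 reached −0.012 when only its largest entry was used. With a limit of 2-fold 0 genes were lower, in place of 1. With the entry of highest mean FPKM in place of the sum, the median was −0.12 for the other CCR4-NOT subunits, −0.12 for the reported ZFP36 targets (−0.043 with no filter) and 0.10 for Cnot6l. With no filter on low values the other BTG/TOB list had a median of −0.037, since Btg3 and Btg4 then enter. The difference in median between genes with 2 or more heptamers and genes with 0 ran from −0.032 to −0.0066 over the alternatives. No paired analysis was possible because the table holds 1 pooled value per genotype. For the same reason no replicate was left out. Depth per sample, and so the error of each value, is unknown.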

Other observations

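Zfp36 and Btg2 are immediate-early genes, induced within minutes when a lymphocyte is stimulated or a tissue is taken apart. Of 21 listed immediate-early genes 18 were compared, 9 lay lower and 9 higher in fl/fl, 1 was lower past 1.5-fold (Dusp1) and 0 were higher past 1.5-fold, with a median log2 ratio of −0.0050 that took either sign over the alternatives (−0.049 to 0.0077). The most abundant were Ier5 with 162 FPKM in wt/fl against 204 FPKM in fl/fl, Dusp2 with 101 and 97.2 FPKM, and Nfkbia, the gene of the NF-kB inhibitor IkBa, with 48.8 and 58.9 FPKM. Zfp36, at 336 and 348 FPKM, was above each of them in both genotypes.

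The proteins of microRNA silencing, which also recruit CCR4-NOT, had 0 of 7 compared genes past 1.5-fold and a median log2 ratio of −0.0059. Eif2c2, also called Ago2 and the main Argonaute, was at 34.998 FPKM in wt/fl against 34.85 FPKM in fl/fl. Its partners Tnrc6a and Tnrc6b, which bind CCR4-NOT directly, were at 30.7 and 32.9 FPKM and at 30.4 and 30.4 FPKM.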
